A study of Mus musculus with 16 samples.

Results

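The genes described here carry fatty acids into muscle fibers and through mitochondrial β-oxidation, or set how far that route is used. They were the 38 rows of the count and FPKM tables with chosen gene symbols, and all 38 were found among the 35415 genes listed. All 38 also passed the filter on low counts that 14749 genes passed. The genes were measured by RNA sequencing of polyA RNA from the gastrocnemius, a fast calf muscle, of wild-type male BALB/c mice bought at 8 weeks of age, with 4 mice in each of 4 groups. Mice of the C group had neither tumor nor training. Mice of the E group had no tumor and were trained for 4 weeks by treadmill running, 6 days a week, in sessions of 60 min at 14 m/min. The T group was inoculated under the skin of the left hind limb region with CT26 cells, a colon carcinoma line from BALB/c mice, and was untrained. The TE group received both the CT26 cells and the training. Mice of C and E received saline at the same site, and all groups were anesthetized for the injection. The paper reports that not every TE mouse of the study formed a tumor. Untrained mice spent 10 to 15 min a day on a treadmill that did not move, and 4 of 12 mice per group were sequenced.

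A muscle fiber takes up fatty acids that lipoprotein lipase releases from blood triglyceride, activates them to acyl-CoA, passes them through the mitochondrial membranes as carnitine esters, and shortens them in repeated cycles of 4 reactions. Each cycle hands electrons to the respiratory chain through flavoproteins. PPAR transcription factors, which sense fatty acids, raise many of these genes in fasting and endurance exercise. Pdk4 turns off pyruvate dehydrogenase in the same mitochondria and is known for its rise when muscle turns from glucose to fat.

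The promoters of 5 of these genes are shown because 4 of them, Pdk4, Ucp3, Angptl4 and Cpt1a, differed from mouse to mouse together, and because the reads of the last, Cpt1b, are hard to assign. Each is 300 bases of GRCm39, running 5′ to 3′ on the strand of the gene, from 250 bases before the annotated start site through the first 50 bases of the transcript. They lie at chr6:5496281-5496580 (Pdk4, minus strand), chr7:100121886-100122185 (Ucp3, plus strand), chr17:34000755-34001054 (Angptl4, minus strand), chr19:3373021-3373320 (Cpt1a, plus strand) and chr15:89310176-89310475 (Cpt1b, minus strand). Capitals mark a match, with at most 2 mismatches, to the direct repeat AGGTCANAGGTCA on either strand, the type of element that PPAR and RXR bind as a pair.
Pdk4: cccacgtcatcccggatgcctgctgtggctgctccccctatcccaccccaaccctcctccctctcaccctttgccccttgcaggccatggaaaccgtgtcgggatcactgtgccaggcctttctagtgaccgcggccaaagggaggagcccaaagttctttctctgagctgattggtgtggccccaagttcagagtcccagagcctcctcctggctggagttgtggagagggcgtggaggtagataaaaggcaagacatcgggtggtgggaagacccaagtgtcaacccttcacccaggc
Ucp3: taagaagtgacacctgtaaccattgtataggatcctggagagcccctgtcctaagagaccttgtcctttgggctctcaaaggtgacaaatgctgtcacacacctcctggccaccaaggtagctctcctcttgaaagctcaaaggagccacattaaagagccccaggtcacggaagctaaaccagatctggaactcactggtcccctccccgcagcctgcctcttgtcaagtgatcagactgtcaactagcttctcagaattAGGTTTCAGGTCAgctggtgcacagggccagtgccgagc
Angptl4: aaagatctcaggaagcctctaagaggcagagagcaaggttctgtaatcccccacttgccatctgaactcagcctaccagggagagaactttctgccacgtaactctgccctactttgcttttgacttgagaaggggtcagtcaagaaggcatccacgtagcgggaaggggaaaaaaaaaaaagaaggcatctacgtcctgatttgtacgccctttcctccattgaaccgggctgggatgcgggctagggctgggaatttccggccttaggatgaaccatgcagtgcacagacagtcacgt
Cpt1a: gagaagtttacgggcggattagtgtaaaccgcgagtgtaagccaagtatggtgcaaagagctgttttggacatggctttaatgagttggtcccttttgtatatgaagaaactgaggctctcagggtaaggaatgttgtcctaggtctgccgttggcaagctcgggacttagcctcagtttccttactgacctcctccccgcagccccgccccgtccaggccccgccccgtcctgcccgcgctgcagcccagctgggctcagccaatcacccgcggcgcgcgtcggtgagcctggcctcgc
Cpt1b: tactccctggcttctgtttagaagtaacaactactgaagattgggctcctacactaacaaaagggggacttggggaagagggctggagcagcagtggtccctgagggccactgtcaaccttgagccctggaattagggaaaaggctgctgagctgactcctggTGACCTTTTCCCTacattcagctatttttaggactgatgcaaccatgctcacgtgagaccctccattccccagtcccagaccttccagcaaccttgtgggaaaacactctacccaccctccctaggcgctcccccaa
The direct repeat was matched in 6 of the 38 promoters (Acacb, Cpt1b, Echs1, Lipe, Plin2 and Ucp3) and in 753 of 21770 promoters of coding genes (3.46%). Every one of the 6 matches had 2 mismatches, so these are matches of letters only, and binding was not measured. The FoxO motif TTGTTTAC was matched exactly in 0 of the 38 promoters and in 0.951% of all, and the estrogen-related receptor motif TCAAGGTCA in 0 of 38 and in 0.473% of all. Windows further from the start site were not searched.

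The 16 libraries held 35628211 to 37635741 counts, so that 3 counts were at most 0.0842 CPM, and TMM factors lay between 0.947 and 1.05. The libraries had the profile of muscle: the summed FPKM of 8 fiber genes lay between 72419 and 81560 in every library, and none of the 8 was at 0. Markers of other cells differed between mice. The summed FPKM of 8 slow and oxidative fiber genes lay between 753 and 1506 in C, 886 and 1176 in E, 876 and 1973 in T, and 790 and 1012 in TE. The sum over 9 white adipocyte genes lay between 1121 and 1418 in C, 1043 and 1542 in E, 1041 and 1915 in T, and 974 and 1105 in TE. Most of that sum came from Car3 and Fabp4, which muscle fibers and endothelium also express, whereas the more specific Adipoq lay between 1.16 and 26.6 FPKM and Plin1 between 0.124 and 5.37 FPKM. The sum over 8 lymphocyte genes was 39.0 in replicate 4 of TE and at most 12.9 in any other library. All 8 were lower in T vs C, with a median log2 fold change of -3.51 and 4 at an unadjusted p under 0.05 by edgeR. In TE vs T all 8 were higher, with a median of 4.31 and 6 at such a p. In both contrasts 0 of them passed after adjustment.

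FPKM divides the counts of a gene by a length set for it and by the library total. For some genes that length was far above that of the main GENCODE transcript, 10433 against 3551 bases for Ppara, 3305 against 1296 for Eci2 and 5922 against 2033 for Hadhb, so the order of levels depends in part on the lengths used. Fabp3, the fatty acid binding protein of muscle and heart, had the highest median over the 16 mice, 989 FPKM, with a range of 714 to 1290. Of the 75-base runs in its main transcript, 58.34% also occur in other genes, most of them in Zcchc17 on the opposite strand. With the strand setting not given, the Fabp3 counts are uncertain for these runs. Zcchc17 itself held 1071 to 1275 counts per library, against 17948 to 32947 for Fabp3. Fabp3 was followed by Lpl, lipoprotein lipase, at 237 FPKM, Etfb, a subunit of the electron transfer flavoprotein, at 210.0, and Pdk4 at 200.0. The ranges of Lpl, Etfb and Pdk4 overlapped. The dehydrogenases of the first step of β-oxidation for very long, medium and long chains, Acadvl, Acadm and Acadl, came next with medians of 173, 164 and 159 FPKM and also overlapped. At the low end stood Ppara, the fatty acid sensor, which shares 49.81% of these runs with Cdpf1 on the opposite strand, at 2.06 FPKM, Acot1, a cytosolic acyl-CoA thioesterase, at 1.31, and Cpt1b at 0.315. The 13 enzymes of β-oxidation itself held close to one level in all mice. Their medians lay between 19.3 FPKM (Eci2) and 173 FPKM, and the widest range over the 16 mice, that of Acaa2, was 1.48-fold. Acsl1, which activates long chains to acyl-CoA, ranged from 39.6 to 60.4 FPKM, Slc22a5, the carnitine transporter of the cell membrane, from 2.93 to 3.94 FPKM, and Pnpla2, the first lipase of triglyceride breakdown, from 82.2 to 123 FPKM. These 3 genes and Hadh, Acadl and Acadvl of β-oxidation had no unadjusted p under 0.05 in any contrast.

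**Figure D1:**
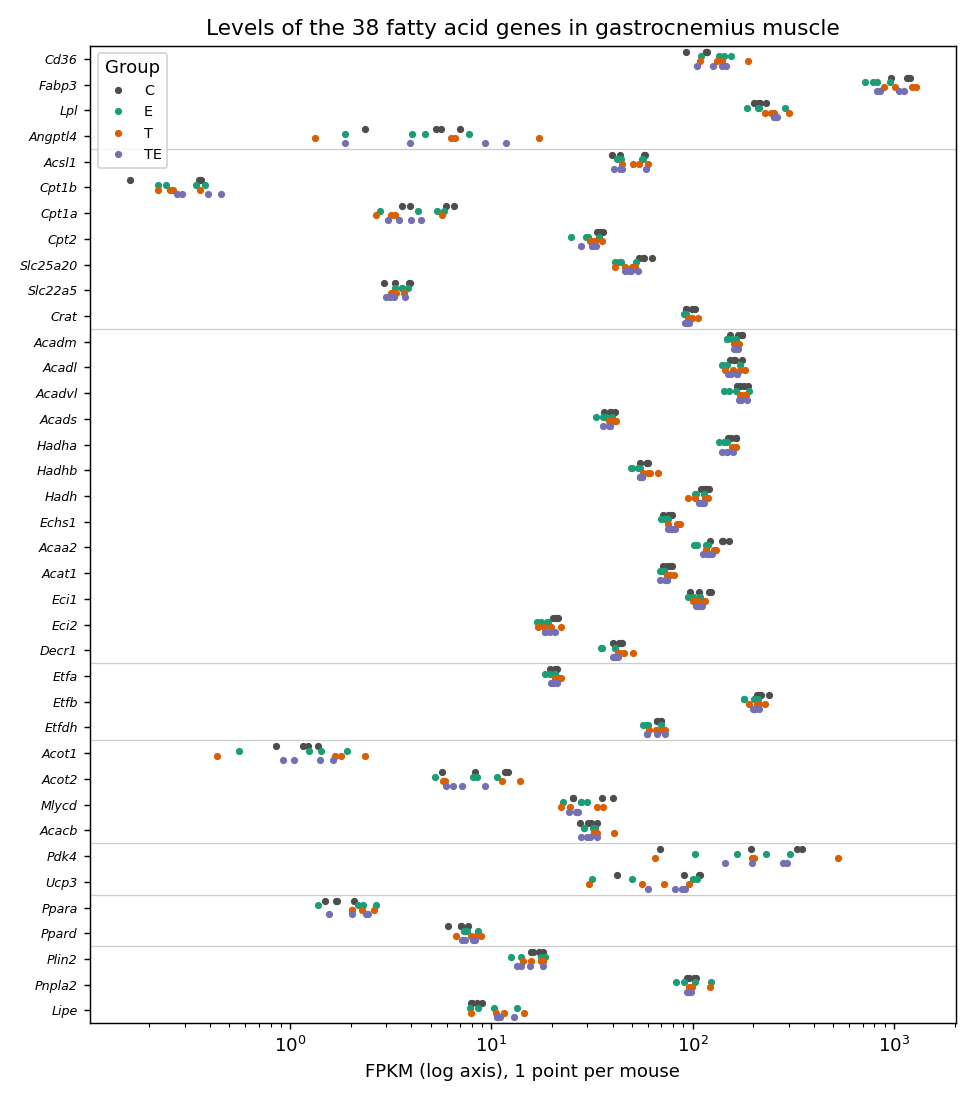
FPKM of the 38 genes on a log axis, 1 point per mouse, colored by group, with lines between the roles of the genes. Most genes form a tight band in all groups, whereas Pdk4 spreads from 65.0 to 530.5 FPKM and Angptl4 from 1.33 to 17.3 FPKM, with mice of every group on both sides.

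The levels of the flavoprotein subunits depended on the lengths used. Etfa and Etfb encode the α and β subunits of a dimer that passes electrons from the acyl-CoA dehydrogenases onward. Etfa held 6624 to 8088 counts and Etfb 5926 to 7991 counts per library, close to each other. The length divided by was 9685 bases for Etfa and 904 bases for Etfb, which placed Etfa at a median of 20.7 FPKM and Etfb at 210.0 FPKM. The counts of the subunits overlapped while their FPKM did not. Of the 75-base runs in the main Etfb transcript, 66.3% also occur in transcripts of Etfbl, which shares 617 exon bases with it on the same strand, so the Etfb counts are uncertain too.

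Cpt1b is the muscle form of carnitine palmitoyltransferase 1, the enzyme that commits a fatty acid to the mitochondrion, and yet it had the lowest level of the 38 genes. Its counts were 17 to 48 per library, against 498 to 1197 for Cpt1a, the form of the liver. In FPKM, Cpt1b was at 0.359, 0.1597, 0.352 and 0.362 in the C group, 0.243, 0.2199, 0.3397 and 0.378 in E, 0.255, 0.263, 0.221 and 0.357 in T, and 0.274, 0.291, 0.39002 and 0.452 in TE. The 4 groups overlapped throughout. In GENCODE on GRCm39 the gene lies on chromosome 15 from 89300606 to 89310239 on the minus strand, and the readthrough gene Gm44502 on the same strand covers 2744 of its 4008 exon bases (68.46%). Of all runs of 75 bases in the main Cpt1b transcript, 87.15% also occur in transcripts of Gm44502. Gm44502 itself held 0 to 9 counts and the neighboring gene Chkb 0 to 2 counts per library. How the counting treated reads that fall in both genes is not given in the sources used here, and the part of this overlap in the low Cpt1b counts was not tested. The values of Cpt1b and its fold changes are therefore uncertain.

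No member passed an adjusted p-value of 0.05 with edgeR's quasi-likelihood test in any of 7 contrasts, which is 0 of 38 in each. The share of all tested genes that passed was 0.678% in T vs C, 0.0881% in E vs C, 0% in TE vs T, 0.231% in TE vs E, 1.36% for the tumor averaged over training, 0.00678% for training averaged over the tumor and 0% for the interaction. With this background, 0 of 38 is not a result that sets the fatty acid genes apart. At an unadjusted p under 0.05, 8 members were found in T vs C (14.2% of all genes), 13 in E vs C (14.2%), 4 in TE vs T (5.88%), 7 in TE vs E (9.23%), 7 for the tumor average (14.2%), 16 for the training average (10.8%) and 3 for the interaction (9.21%). DESeq2 called 5 members in E vs C (2.23% of all genes tested by it), 2 for the tumor average (2.96%) and 4 for the training average (0.788%). It called 0 members in T vs C (2.85%), TE vs T (0.0294%), TE vs E (1.17%) and the interaction (0.124%). The contrasts share mice: E vs C and T vs C have the same C mice, TE vs T and TE vs E the same TE mice, E vs C and TE vs E the same E mice with opposite sign, T vs C and TE vs T the same T mice with opposite sign, and the averages use all 16.

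The differences were small and, for most genes, bounded closely. The 95% interval of the fold change lay within 2-fold in both directions for 35 of the 38 genes in E vs C, 33 in TE vs T, 34 in T vs C and 36 in TE vs E. It lay within 1.5-fold for all 13 β-oxidation enzymes and all 3 electron transfer genes in each of these contrasts. The exceptions at 2-fold were among Angptl4, Pdk4, Ucp3, Acot1 and Cpt1b.

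**Figure D2:**
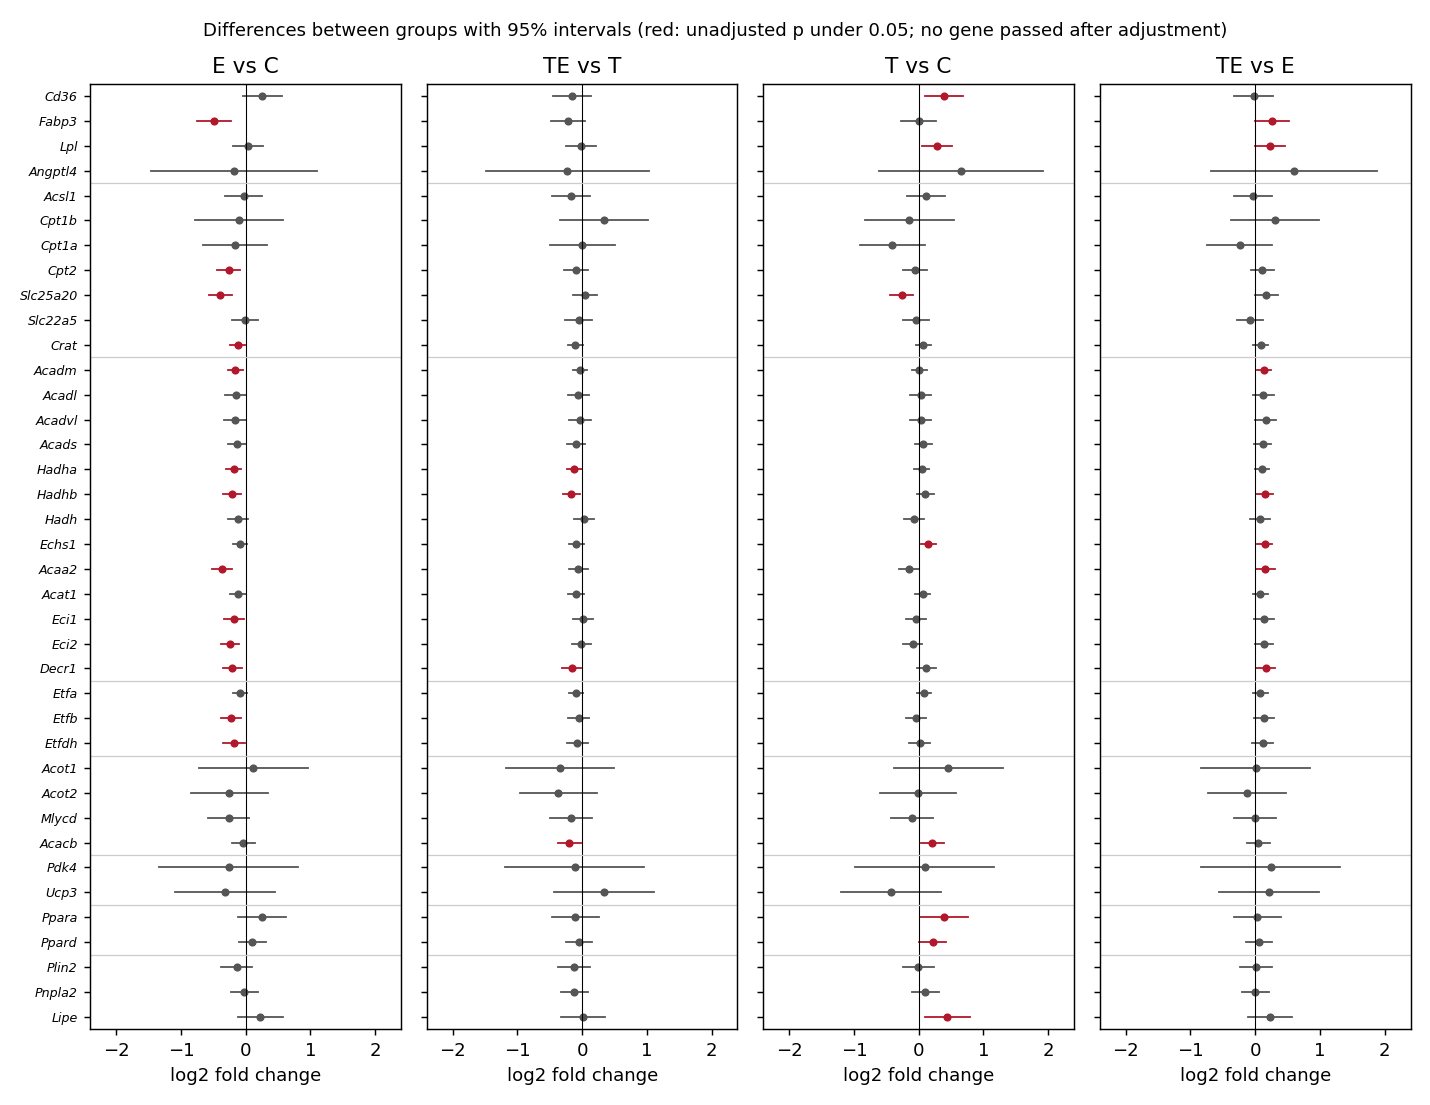
Log2 fold change of each of the 38 genes (point) with its 95% interval (line) in E vs C, TE vs T, T vs C and TE vs E from edgeR, with red for an unadjusted p under 0.05. The β-oxidation enzymes lie left of 0 in E vs C, 13 of 13, and right of 0 in TE vs E, 13 of 13, both from the same 4 E mice with opposite sign, and no gene passed after adjustment.

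The comparison of trained with untrained mice asks what the running did to muscle, first without a tumor (E vs C). Of the 38 genes, 32 had a negative log2 fold change, with a median of -0.16, where 49.4% of all tested genes were negative and their median was 0.0033. All 13 genes at an unadjusted p under 0.05 were lower in E (34.2% of the members, 5.67% of all genes), among them 7 of 13 β-oxidation enzymes, 3 of 7 shuttle genes and 2 of 3 electron transfer genes. The FPKM of E lay wholly below those of C for 6 genes, Fabp3, Slc25a20, Hadha, Hadhb, Acaa2 and Eci2, which is 15.8% of the members and 2.39% of all genes. It lay wholly above for 0 members (6.28% of all genes). In whole muscle, fewer fibers or cells of a type and less RNA per cell cannot be told apart.

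Among the uptake genes, Fabp3 was at 1181, 1204, 965 and 1158 FPKM in the C mice and at 714, 961, 828 and 792 FPKM in the E mice. The highest E mouse was just under the lowest C mouse. The means were 1127 ± 109 and 824 ± 103 FPKM (SD, n = 4 each), and the log2 fold change was -0.49 (SE 0.13, adjusted p = 0.134). Cd36, the fatty acid translocase of the plasma membrane, pointed the other way without separating, at 93.1, 117, 117 and 117 FPKM in C and 109.7, 156, 143 and 135 FPKM in E (log2 fold change 0.26 (SE 0.14, adjusted p = 0.423)).

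Slc25a20, the carrier that exchanges acylcarnitine for carnitine across the inner mitochondrial membrane, was at 56.7, 53.9, 63.02 and 57.3 FPKM in C and at 43.2, 52.6, 44.01 and 40.97 FPKM in E. The groups did not overlap, although replicate 2 of E came close to the lowest C mouse. This gave a log2 fold change of -0.39 (SE 0.086, adjusted p = 0.0867). All 7 genes of activation and the shuttle had a negative log2 fold change in E vs C, with a median of -0.12.

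The β-oxidation enzymes were 13 of 13 on the lower side in E, with log2 fold changes from -0.37 to -0.088 and a median of -0.16. Acaa2, the thiolase of the last step for medium and long chains, had the smallest adjusted p of the 38 genes. It was at 122, 142, 139 and 151 FPKM in C and at 102, 119, 116 and 105 FPKM in E, with means of 139 ± 12.1 and 110.4 ± 8.46 (SD, n = 4 each). The log2 fold change was -0.37 (SE 0.071, adjusted p = 0.0516), just short of the threshold, and its 95% interval was -0.52 to -0.22. Acaa2 lies on chromosome 18 from 74911948 to 74953492 on the plus strand.

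Hadha and Hadhb encode the α and β subunits of the trifunctional protein, which carries out the last 3 reactions on long chains. They are neighbors on chromosome 5 in head-to-head order, with 932 exon bases in common on opposite strands. Hadha was at 151, 154, 165 and 165 FPKM in C and 136, 146, 149 and 144 FPKM in E (log2 fold change -0.18 (SE 0.055, adjusted p = 0.172)). Hadhb was at 54.9, 59.4, 59.1 and 59.8 FPKM in C and 49.3, 54.6, 53.3 and 49.9 FPKM in E (log2 fold change -0.21 (SE 0.065, adjusted p = 0.185)). For both subunits every E mouse was below every C mouse, and the nearest of them were at 149 and 151 FPKM for Hadha. The Hadhb counts are uncertain to the extent that 57.63% of the 75-base runs of its transcript also occur in a pseudogene. For Hadha, 42.91% of them also occur in Garem2 on the opposite strand. Garem2 itself held 0 to 1 counts per library, against 13625 to 16430 for Hadha.

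Eci2, an isomerase needed for unsaturated chains, was at 20.2, 21.5, 20.9 and 21.2 FPKM in C and at 17.6, 19.03, 18.99 and 16.96 FPKM in E, again without overlap. Its log2 fold change was -0.25 (SE 0.067, adjusted p = 0.146). Acadm, the medium-chain dehydrogenase, was at 154, 167, 177 and 176 FPKM in C and at 148, 164, 157 and 149 FPKM in E. These overlapped, since replicate 1 of C was lower than 2 of the E mice, and the log2 fold change was -0.16 (SE 0.054, adjusted p = 0.213).

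With DESeq2 in place of edgeR, 5 of these genes passed in E vs C: Acaa2 (adjusted p = 0.000432), Slc25a20 (0.00464), Fabp3 (0.0129), Eci2 (0.0311) and Hadha (0.0319). The fold changes were nearly the same in both tools, for example -0.3682 for Acaa2 on the log2 scale with DESeq2. The call for Acaa2 also passed in edgeR with DESeq2's size factors, without the filter on low counts, and without any of replicates 2, 3 and 4 of the T group, and Slc25a20 passed in edgeR without replicate 3 of T. All 13 β-oxidation enzymes stayed on the lower side of E vs C when any 1 of the 16 mice was left out. The median over all members then ranged from -0.19 to -0.12. The enzymes were measured in the same mice, so they are not 13 separate results. Replicate 2 of E had Acadvl at 191 FPKM, above every C mouse (at most 189 FPKM).

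**Figure D3:**
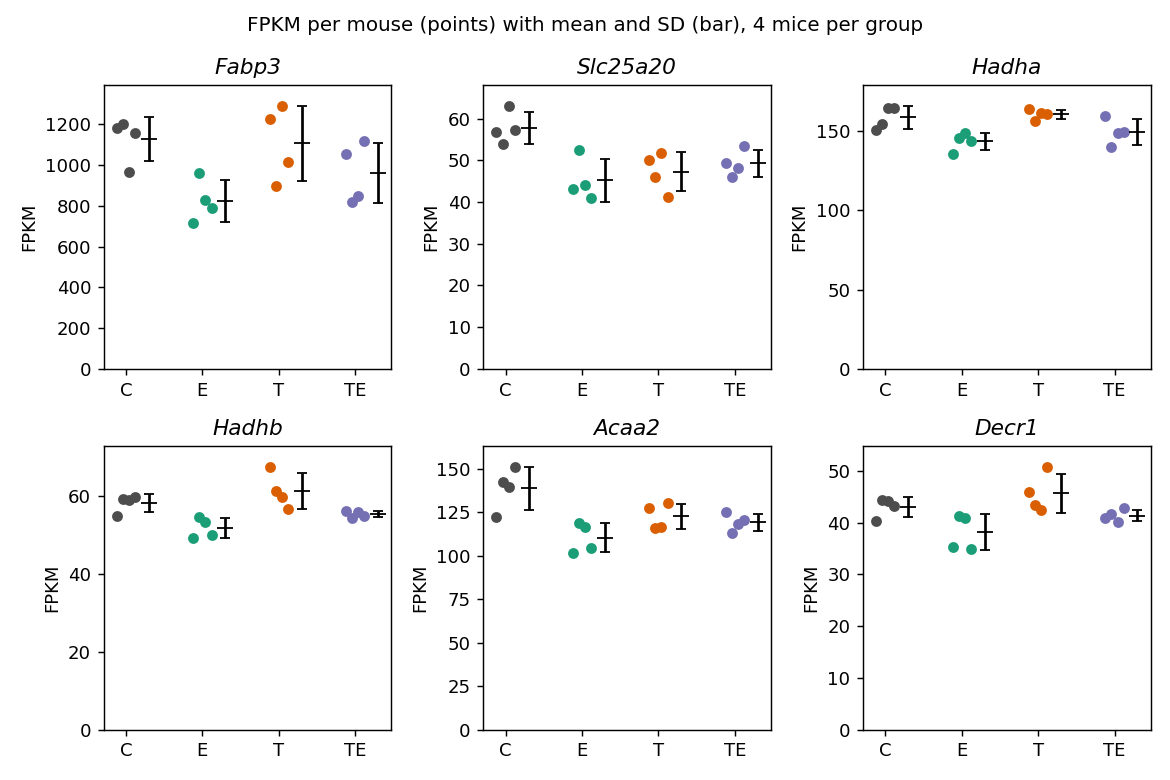
FPKM of Fabp3, Slc25a20, Hadha, Hadhb, Acaa2 and Decr1 in every mouse, by group (points), with the mean and SD of 4 mice (bars) and axes from 0. The E mice lie below all C mice for Fabp3, Slc25a20, Hadha, Hadhb and Acaa2, and the TE mice lie below all T mice for Hadhb.

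In tumor-bearing mice, the same question (TE vs T) gave 31 of 38 genes with a negative log2 fold change and a median of -0.094, or -0.057 without replicate 3 of T, where 49.5% of all genes were negative. At an unadjusted p under 0.05 there were 4 genes, all lower in TE (10.5% of the members, 3.01% of all genes). These were Hadhb, Hadha, Decr1 and Acacb. The count was 1 without replicate 1 of T or replicate 4 of TE, and 2 without replicate 4 of T, without replicate 3 of TE or without the filter on low counts. The FPKM of TE lay wholly below those of T for Hadhb and for Acat1, the mitochondrial thiolase of ketone bodies and isoleucine, 2 of 38 genes or 5.26% (0.976% of all genes), and wholly above for 0 (1.49%).

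Hadhb was at 67.6, 61.3, 59.8 and 56.8 FPKM in T and at 56.1, 54.5, 55.8 and 54.9 FPKM in TE. The TE mice were within 2 FPKM of each other, and the highest of them was below the lowest T mouse. Between these groups its log2 fold change was -0.17 (SE 0.065, adjusted p = 0.793), and -0.097 without replicate 1 of T. Hadha was at 164, 156, 161 and 161 FPKM in T and 159, 139.7, 149 and 149 FPKM in TE, with an overlap through replicate 1 of TE (log2 fold change -0.12 (SE 0.055, adjusted p = 0.847)).

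Decr1, the reductase that makes polyunsaturated chains fit for β-oxidation, was at 45.8, 43.5, 42.4 and 50.8 FPKM in T and 40.8, 41.6, 40.1 and 42.8 FPKM in TE. Only replicate 4 of TE reached into the T range, and the log2 fold change was -0.16 (SE 0.070, adjusted p = 0.843), or -0.10 without replicate 4 of T. Acacb, the acetyl-CoA carboxylase whose product malonyl-CoA inhibits carnitine palmitoyltransferase 1, was at 33.4, 32.5, 40.7 and 32.5 FPKM in T and 29.7, 31.1, 33.4 and 27.9 FPKM in TE. Replicate 3 of T stood above all others, and the log2 fold change went from -0.20 (SE 0.085, adjusted p = 0.839) to -0.13 without it.

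Averaged over both tumor states, training gave 31 of 38 genes a negative log2 fold change, with a median of -0.11 and 48.4% of all genes negative. At an unadjusted p under 0.05 there were 16 members, all lower in trained mice (42.1% of the members, 4.8% of all genes). They included 9 of 13 β-oxidation enzymes, all 3 electron transfer genes, 3 of 7 shuttle genes and Fabp3. The smallest adjusted p-values of edgeR were those of Acaa2, at a log2 fold change of -0.21 (SE 0.050, adjusted p = 0.184), Hadhb, at -0.19 (SE 0.046, adjusted p = 0.188), and Fabp3, at -0.36 (SE 0.088, adjusted p = 0.193). Hadha, at -0.15 (SE 0.039, adjusted p = 0.193), and Decr1, at -0.18 (SE 0.049, adjusted p = 0.225), were close behind. DESeq2 called Acaa2, Fabp3, Hadha and Hadhb, with adjusted p-values between 0.0171 and 0.0196. In the shuttle, Cpt2, the second carnitine palmitoyltransferase, had a log2 fold change of -0.18 (SE 0.061, adjusted p = 0.347) and Slc25a20 of -0.17 (SE 0.061, adjusted p = 0.347).

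The genes on the other side of the training average were 7: Ucp3, Lpl, Ppard, Cd36, Ppara, Cpt1b and Lipe. None of them had an unadjusted p under 0.05. Plin2, which coats lipid droplets, was at 15.8, 16.1, 17.97 and 17.3 FPKM in C, 17.6, 18.4, 14.01 and 12.6 in E, 15.8, 14.4, 17.7 and 17.97 in T, and 14.02, 18.05, 13.4 and 15.5 in TE. All 4 groups overlapped, and the log2 fold change for training was -0.13 (SE 0.082, adjusted p = 0.578). Mlycd, which degrades malonyl-CoA, and Acot2, a mitochondrial acyl-CoA thioesterase, had log2 fold changes of -0.22 (SE 0.11, adjusted p = 0.486) and -0.31 (SE 0.20, adjusted p = 0.592). The value of Acot2 was -0.19 without replicate 3 of T.

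Markers of slow and oxidative fibers, which hold more of the β-oxidation enzymes than fast fibers, were also on the lower side with training. For the training average, 8 of 8 had a negative log2 fold change, with a median of -0.50, and 4 had an unadjusted p under 0.05. In TE vs T all 8 were lower, with a median of -0.89 and all 8 at an unadjusted p under 0.05. In E vs C, 6 of 8 were lower, with a median of -0.17 and 0 at an unadjusted p under 0.05. No slow fiber marker passed after adjustment by edgeR in these 3 contrasts, and their summed FPKM in E, 886 to 1176, lay inside the range of C. With the tumor their direction was not that of the β-oxidation enzymes throughout. In T vs C all 8 were higher, with a median of 0.42 and 1 at an unadjusted p under 0.05, but in TE vs E, where all 13 β-oxidation enzymes were on the higher side, all 8 were lower, with a median of -0.29 and 0 at an unadjusted p under 0.05. Their part in the levels of the β-oxidation genes was not tested.

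The comparison of tumor-bearing with tumor-free mice asks what the tumor did to the muscle. Without training (T vs C), 23 of 38 genes had a positive log2 fold change, with a median of 0.040, where 49.7% of all genes were positive. The median was 0.016 without replicate 1 of T, 0.020 without replicate 3 of T and 0.081 without replicate 2 of T. Of the 8 genes at an unadjusted p under 0.05, 7 were higher in T (18.4% of the members, 8.23% of all genes): Cd36, Lpl, Lipe, Ppara, Ppard, Acacb and Echs1. The remaining gene, Slc25a20, was lower in T (2.63% of the members, 5.96% of all genes) and was the 1 member whose FPKM did not overlap between T and C (4.21% of all genes lower without overlap, and 0 members against 2.64% of all genes higher without overlap). The count of 8 was 5 without replicate 3 of C. Without replicate 3 of T it was 6, of which 3 were higher and 3 lower, so that the 7 to 1 split at this p rested on that mouse, while 22 of the 38 genes still had a positive log2 fold change.

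Cd36 was at 93.1, 117, 117 and 117 FPKM in C and at 139.7, 109, 189 and 133 FPKM in T. Replicate 3 of T was far above the rest and replicate 2 of T fell within the C range. With all mice the log2 fold change was 0.39 (SE 0.14, adjusted p = 0.214), and it was 0.24 without replicate 3 of T. Lpl was at 210.1, 230.2, 201 and 216 FPKM in C and 255, 228, 302 and 244 FPKM in T, overlapping through replicate 2 of C and replicate 2 of T, with a log2 fold change of 0.29 (SE 0.11, adjusted p = 0.234).

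Lipe, hormone-sensitive lipase, was at 7.94, 9.03, 8.47 and 7.97 FPKM in C and 11.6, 7.901, 14.6 and 10.6 FPKM in T. Of the T mice 3 were above all C mice and replicate 2 was below all of them, and the log2 fold change was 0.44 (SE 0.16, adjusted p = 0.22). Of the PPAR factors, Ppard, the form most typical of muscle, was at 7.09, 7.696, 7.05 and 6.09 FPKM in C and 7.903, 8.44, 8.85 and 6.69 FPKM in T (log2 fold change 0.22 (SE 0.10, adjusted p = 0.323)). It was at 7.297, 7.29, 7.53 and 8.62 FPKM in E and 7.19, 8.29, 8.12 and 7.404 FPKM in TE, and all 4 groups overlapped. Ppara had a log2 fold change of 0.39 (SE 0.17, adjusted p = 0.321).

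Slc25a20 was at 50.2, 45.9, 51.8 and 41.3 FPKM in T, and all 4 were below the lowest C mouse at 53.9 FPKM. This was a log2 fold change of -0.26 (SE 0.086, adjusted p = 0.174). Acacb, at 30.1, 27.5, 33.6 and 31.4 FPKM in C, had a log2 fold change of 0.21 (SE 0.085, adjusted p = 0.269) in T vs C, and 0.14 without replicate 3 of T.

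Among trained mice (TE vs E), 31 of 38 genes had a positive log2 fold change, with a median of 0.12, where 50.8% of all genes were positive. All 7 genes at an unadjusted p under 0.05 were higher in TE (18.4% of the members, 3.7% of all genes). This count rested on replicates of E: it was 17 without replicate 2, 1 without replicate 1, 2 without replicate 4 and 4 without replicate 3. It was also 4 without replicate 1 or replicate 3 of TE. All 13 β-oxidation enzymes had a positive log2 fold change, between 0.076 and 0.17, also with any 1 mouse left out, but the E mice are those of E vs C, so that their low values enter both contrasts. No member had FPKM in TE wholly above E (1.17% of all genes) or wholly below (5.56%).

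Echs1, the hydratase of the second step for short chains, was at 73.3, 74.2, 75.6 and 69.8 FPKM in E and 75.1, 81.5, 78.8 and 77.97 FPKM in TE, where 1 of the 4 TE mice lay among the E mice (log2 fold change 0.15 (SE 0.054, adjusted p = 0.401)). Acadm was at 148, 164, 157 and 149 FPKM in E and 168, 164, 161 and 162 FPKM in TE, overlapping through replicate 2 of E (log2 fold change 0.14 (SE 0.054, adjusted p = 0.435)). Decr1 was at 35.3, 41.3, 40.95 and 34.9 FPKM in E and 40.8, 41.6, 40.1 and 42.8 FPKM in TE. The E mice fell into a pair near 35 FPKM and a pair near 41 FPKM, the second of which overlapped with TE, and the log2 fold change was 0.17 (SE 0.070, adjusted p = 0.469).

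Lpl was at 187, 289, 211 and 214 FPKM in E and at 261, 259, 253 and 252 FPKM in TE. Replicate 2 of E was above every TE mouse, whereas the other 3 E mice were below all of them. With that mouse the log2 fold change was 0.23 (SE 0.11, adjusted p = 0.535), and without it 0.39, whereas it was 0.15 without replicate 1 of E. Fabp3, at 1054, 821, 849 and 1118 FPKM in TE, had a mean of 961 FPKM, between those of E and C, and a log2 fold change of 0.27 (SE 0.12, adjusted p = 0.535) against E.

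Averaged over both training states, 32 of 38 genes had a positive log2 fold change with the tumor, with a median of 0.077 (50.2% of all genes positive). At an unadjusted p under 0.05 there were 7, all higher (18.4% of the members, 7.41% of all genes), namely Lpl, Hadhb, Echs1, Decr1, Etfa, Acacb and Lipe. Echs1 came nearest to the threshold. It was at 71.2, 78.2, 75.5 and 78.7 FPKM in C and 75.2, 84.6, 83.7 and 86.6 FPKM in T, and its log2 fold change over both states was 0.15 (SE 0.038, adjusted p = 0.0699). Lpl had a log2 fold change of 0.26 (SE 0.077, adjusted p = 0.113), Lipe of 0.34 (SE 0.11, adjusted p = 0.178) and Decr1 of 0.14 (SE 0.049, adjusted p = 0.193). DESeq2 called Echs1 (adjusted p = 0.00744) and Lpl (adjusted p = 0.0374). Without replicate 2 of E, edgeR called Lpl and Lipe, at log2 fold changes of 0.34 and 0.43, and 12 members had an unadjusted p under 0.05, as they did without replicate 2 of T. All 4 uptake genes and all 3 genes of the lipid droplet and lipolysis were on the higher side.

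**Figure D4:**
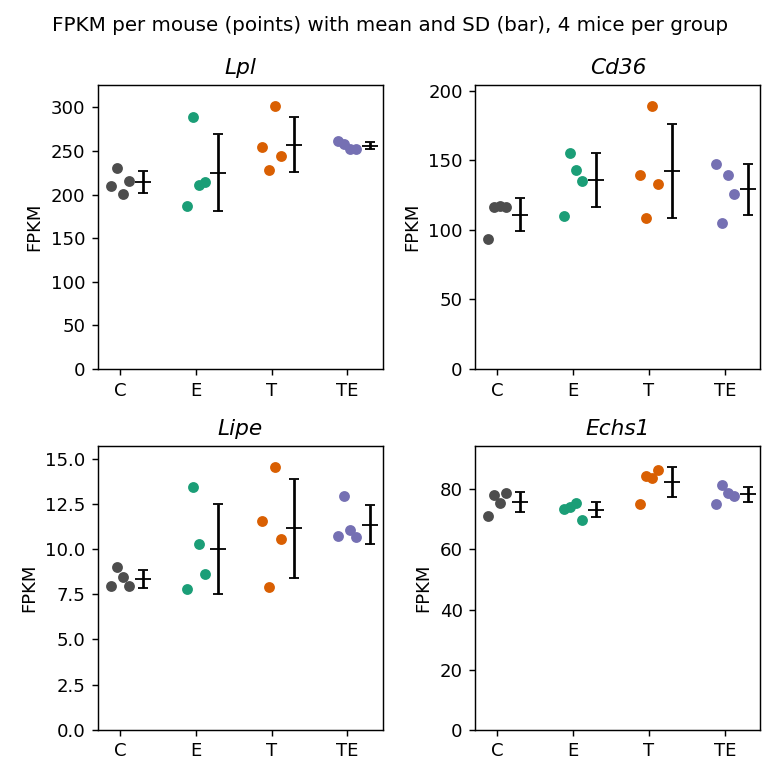
FPKM of Lpl, Cd36, Lipe and Echs1 in every mouse, by group (points), with the mean and SD of 4 mice (bars) and axes from 0. For Lpl and Lipe all TE mice and most T mice lie above the C mice, but replicate 2 of E stands above the other E mice and above every TE mouse. Replicate 3 of T has the highest Lpl, Cd36 and Lipe.

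Lpl, Lipe and Cd36 are also genes of fat cells, and markers of white adipocytes differed between these libraries. Of 9 markers, 8 had a positive log2 fold change in T vs C, with a median of 1.00, 8 in E vs C, with a median of 1.34 and 4 at an unadjusted p under 0.05, all higher, and 7 for the tumor average, with a median of 0.13. In TE vs E, where Lpl was on the higher side, 8 of the 9 were lower, with a median of -0.53. No adipocyte marker passed after adjustment by edgeR in these 4 contrasts, and none of the 9 was at 0 in all mice of a group. Adipoq, the adipocyte hormone adiponectin, was at 1.16, 7.39, 7.75 and 3.38 FPKM in C, 7.53, 26.6, 16.003 and 4.301 in E, 1.37, 5.87, 18.9 and 17.7 in T, and 6.92, 10.9, 12.2 and 5.68 in TE. Replicate 2 of E, with the highest Adipoq, had the highest Lpl and Lipe of the E mice. Replicate 3 of T, with the highest Adipoq of the T mice, had the highest Lpl, Lipe and Cd36 of all 16. Replicate 1 of T, with the lowest Adipoq of the T mice, had the second-highest Lpl, Lipe and Cd36 of that group. Over the 16 mice the log2 CPM of Lipe and Adipoq had r = 0.465 (permutation p = 0.0698, adjusted p = 0.0698 over 4 pairs) and rho = 0.538 (permutation p = 0.0335, adjusted p = 0.0335). Without the 2 mice farthest from the median of Lipe, r was 0.428 (permutation p = 0.128), and with values centred on the group means it was 0.410 (permutation p = 0.115). Brown adipocyte markers also differed between mice. Ucp1, their uncoupling protein, had 151 counts in replicate 2 of E, 64 in replicate 2, 30 in replicate 3 and 14 in replicate 1 of TE, and 0 to 4 in each other library. Of the 4 brown adipocyte markers that passed the filter of 5, all were on the higher side for the training average, with a median of 0.52 and 1 at an unadjusted p under 0.05, and 0 for the tumor average, with a median of -0.18, and none passed after adjustment. Elovl3, the marker that did not pass the filter, was at 0 counts in all T mice. The part of adipocytes in the levels of these genes was not tested. Cd36 and Lpl are also found in or on the endothelium. Of 8 endothelial markers, 4 were higher and 4 lower in T vs C, with a median of 0.12. At an unadjusted p under 0.05 there were 4 higher and 2 lower, and 1, the VEGF receptor Kdr, named here after its values were seen, fell with an edgeR log2 fold change of -0.68 (SE 0.15, adjusted p = 0.0457). For the tumor average 6 had an unadjusted p under 0.05, 3 in each direction, and edgeR called 2 lower, Kdr and the sialomucin Emcn, with log2 fold changes of -0.69 (SE 0.11, adjusted p = 0.00233) and -0.40 (SE 0.082, adjusted p = 0.0189). Their summed FPKM lay between 165 and 209 in C and between 177 and 237 in T. All 8 macrophage markers were on the higher side in T vs C, with a median of 0.67, 4 at an unadjusted p under 0.05 and 0 after adjustment. Their summed FPKM lay between 56.9 and 111 in C and between 74.02 and 168 in T. Of 6 erythroid markers, 4 rose in T vs C and 5 in TE vs E after adjustment by edgeR, with medians over the 6 of 0.90 and 1.19 on the log2 scale. Their summed FPKM lay between 361 and 527 in C, 391 and 581 in E, 733 and 820 in T, and 863 and 1271 in TE. None of these markers was at 0 in all mice of a group, and the part of these 3 cell types in the levels of the uptake genes was not tested.

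The interaction asks whether training acted differently with and without a tumor, which is the difference of TE vs T and E vs C. Of the 38 genes, 24 had a positive value, with a median of 0.046, which became 0.022 without replicate 4 of C, 0.027 without replicate 2 of T, 0.078 without replicate 1 of T and 0.11 without replicate 2 of E (49.8% of all genes positive), and 3 had an unadjusted p under 0.05, all positive (7.89% of the members, 3.7% of all genes). This count was 8 without replicate 2 of E and 5 without replicate 1 of E. Slc25a20 had the smallest p, with an interaction of 0.43 (SE 0.12, adjusted p = 0.42) on the log2 scale. Its means were 57.7 ± 3.83 FPKM in C, 45.2 ± 5.08 in E, 47.3 ± 4.73 in T and 49.3 ± 3.16 in TE (SD, n = 4 each). The C mice stood apart as the highest, and E, T and TE overlapped.

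Acaa2 was at 127, 116, 117 and 130.0 FPKM in T and 125, 113, 118 and 120.4 FPKM in TE, which overlapped, and its interaction was 0.31 (SE 0.10, adjusted p = 0.439). Eci2, at 18.2, 17.1, 22.1 and 19.7 FPKM in T and 18.5, 18.5, 19.6 and 20.7 FPKM in TE, had an interaction of 0.24 (SE 0.095, adjusted p = 0.488). The interaction of Cd36 was negative, -0.41 (SE 0.20, adjusted p = 0.546), and -0.26 without replicate 3 of T, from means of 111 ± 11.9 FPKM in C, 136 ± 19.4 in E, 143 ± 33.8 in T and 129 ± 18.4 in TE (SD, n = 4 each). Of the 13 β-oxidation enzymes, 12 had a positive interaction, with a median of 0.091, and Acaa2 and Eci2 had an unadjusted p under 0.05. No member passed after adjustment, so the difference between trained and untrained mice was not shown to depend on the tumor for any of them.

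Some of the 38 genes differed widely between mice of the same group, and these are described next, chosen by their SD. The paper states that chow was freely available and reports that tumor-bearing mice moved and ate less. Feeding state at collection and the time since the last run are not given in the sources used here. The median SD within groups was 0.124 for the 38 genes and 0.193 for all tested genes, in log2 CPM. The SD of Angptl4 was 1.11, above that of 98.62% of tested genes, and that of Pdk4 was 0.916, above 96.55%. Acot1 (0.673), Ucp3 (0.647), Acot2 (0.477) and Cpt1a (0.394) followed. At the other end stood Etfa (0.051), Acadm (0.056), Echs1 (0.056), Hadha (0.057) and Crat (0.060), carnitine acetyltransferase, for which at most 1.04% of tested genes had a smaller SD.

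Pdk4, which turns off pyruvate dehydrogenase, was at 195, 68.9, 348 and 329 FPKM in C and 306, 231, 165 and 103 FPKM in E. It was at 202, 65.01, 530.5 and 198 FPKM in T and 146, 283, 197 and 294 FPKM in TE. The lowest and the highest of all 16 mice, replicates 2 and 3 of T, belonged to 1 group and differed by 8.16-fold. The log2 fold change was 0.10 in T vs C (95% interval -0.98 to 1.17) and -0.26 in E vs C (95% interval -1.34 to 0.81). In T vs C it turned to -0.56 without replicate 3 of T and to -0.21 without replicate 2 of C, so no direction can be given. In E vs C it was -0.57 without replicate 2 of C and -0.032 without replicate 3 of C.

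Ucp3, an uncoupling protein of muscle mitochondria, was at 90.9, 42.2, 108 and 107 FPKM in C and 101, 105, 50.3 and 31.7 FPKM in E. It was at 71.9, 30.5, 95.6 and 56.2 FPKM in T and 82.01, 88.9, 60.3 and 92.1 FPKM in TE. The log2 fold change in T vs C was -0.43 (SE 0.37, adjusted p = 0.635), with a 95% interval of -1.21 to 0.34, wide enough to hold a change of 2-fold downward, and it was -0.21 without replicate 2 of T and -0.68 without replicate 3 of T. Angptl4, a secreted inhibitor of lipoprotein lipase, was at 5.31, 2.36, 6.95 and 5.61 FPKM in C, 4.71, 7.76, 4.02 and 1.87 in E, 6.29, 1.33, 17.3 and 6.61 in T, and 1.88, 11.8, 3.95 and 9.31 in TE. It ranged over 12.99-fold, and the log2 fold change with the tumor, averaged over training, was 0.63 (SE 0.43, adjusted p = 0.551), or 0.28 without replicate 3 of T.

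Cpt1a was at 3.62, 3.93, 6.53 and 5.95 FPKM in C and 5.83, 4.32, 5.36 and 2.78 FPKM in E. It was at 3.16, 2.69, 5.67 and 3.31 FPKM in T and 3.07, 3.98, 3.47 and 4.46 FPKM in TE. The upper mice of C and E were above all TE mice, but the groups overlapped, and the log2 fold change for the tumor average was -0.32 (SE 0.17, adjusted p = 0.407).

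In C, E and T these genes tended to be high and low in the same mice. Replicate 2 of C, replicate 4 of E and replicate 2 of T were the lowest of their groups for Pdk4, Ucp3, Angptl4 and Acot1, and replicate 3 of T was the highest of T for those 4 and for Acot2 and Cpt1a. The lowest Cpt1a of C, however, was in replicate 1. In TE no mouse was lowest for all 6 genes: replicate 1 was lowest for Pdk4, Angptl4 and Cpt1a, replicate 3 for Ucp3 and Acot2, and replicate 2 for Acot1. Across the 16 mice, in log2 CPM, Pdk4 and Angptl4 had r = 0.877 (permutation p = 1e-05, the smallest that 100000 resamples can give, adjusted p = 4e-05) and rho = 0.803 (permutation p = 0.00029, adjusted p = 0.000413). Pdk4 and Ucp3 had r = 0.858 (permutation p = 5e-05, adjusted p = 0.0001) and rho = 0.871 (permutation p = 4e-05, adjusted p = 0.00016). Pdk4 and Cpt1a had r = 0.721 (permutation p = 0.00137, adjusted p = 0.00183) and rho = 0.797 (permutation p = 0.00031, adjusted p = 0.000413). The p-values were adjusted over 4 pairs, and the pairs with Pdk4 share its values.

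Without the 2 mice farthest from the median of Pdk4, replicate 2 of C and replicate 2 of T, r was 0.840 (permutation p = 0.00024) with Angptl4, 0.769 (permutation p = 0.00114) with Ucp3 and 0.771 (permutation p = 0.00128) with Cpt1a. With each value taken relative to its group mean, r was 0.884, 0.890 and 0.836 in the same order, so the relation held between mice of the same group. The pairs were chosen with these data in view.

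**Figure D5:**
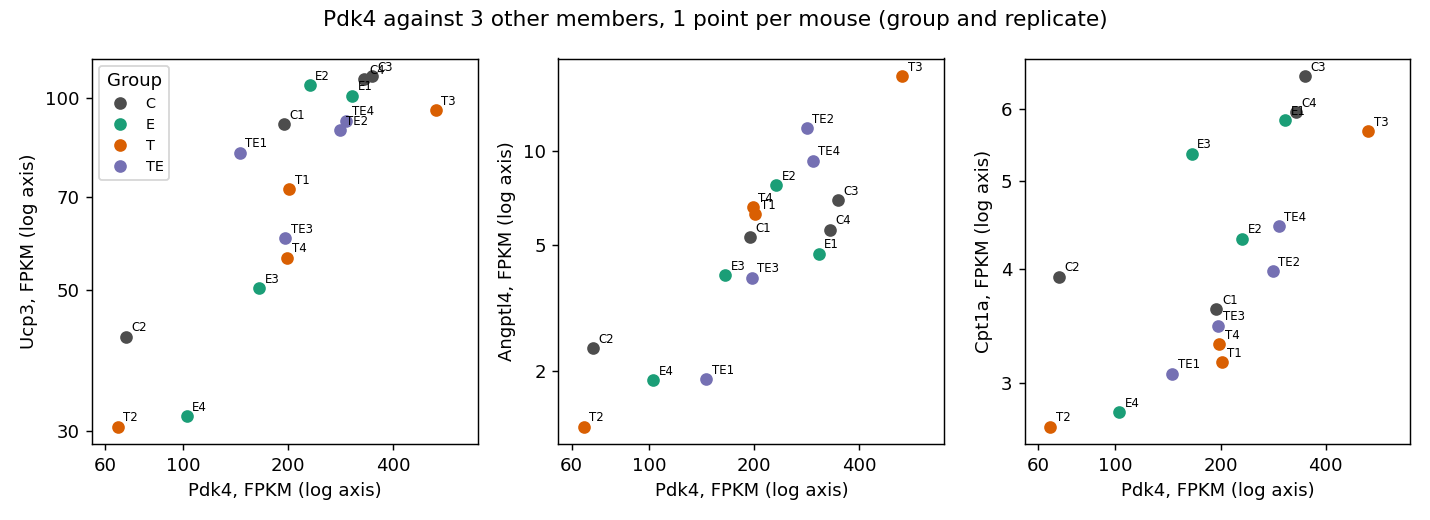
FPKM of Ucp3, Angptl4 and Cpt1a against FPKM of Pdk4 on log axes, 1 point per mouse with its group and replicate number. The points rise together from replicate 2 of T at the lower left to replicate 3 of T or the upper C mice, and mice of all groups lie along the same trend (r = 0.858, 0.877 and 0.721 in log2 CPM).

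Beyond the 38 genes, 75 other genes of fatty acid metabolism were tested. In T vs C 45 were on the higher side, in E vs C 32, in TE vs T 29 and in TE vs E 39, with medians between -0.054 and 0.028 on the log2 scale. Nudt7, a peroxisomal hydrolase of coenzyme A and acyl-CoA, fell in T vs C, with a log2 fold change of -0.44 (SE 0.092, adjusted p = 0.0349). It was at 4.54, 4.78, 6.11 and 6.28 FPKM in C and at 3.92, 4.18, 3.89 and 3.66 FPKM in T, all T mice being below all C mice. In E vs C its log2 fold change was -0.49 (SE 0.092, adjusted p = 0.0515). The call in T vs C was lost with the replicate number as a block and without any one of replicates 3 and 4 of C, 4 of E and 1, 3 and 4 of T.

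Acsl3, an acyl-CoA synthetase of the endoplasmic reticulum and lipid droplets, rose with the tumor averaged over training, with a log2 fold change of 0.74 (SE 0.16, adjusted p = 0.0234). It was at 4.46, 4.19, 3.81 and 3.52 FPKM in C, 4.77, 7.12, 4.78 and 5.74 in E, 10.8, 5.38, 8.29 and 4.41 in T, and 9.46, 8.62, 7.99 and 6.73 in TE. All TE mice were above all C mice, but so were all E mice, which had no tumor, and replicate 4 of T lay within the C range. Replicate 2 of E was above replicates 2 and 4 of T and replicate 4 of TE. The call was lost without replicate 4 of C or without replicate 1 or 3 of E. Nudt7 and Acsl3 were the only 2 of the 75 genes that edgeR called in any of the 7 contrasts.

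Other regulators did not pass. Ppargc1a, the coactivator that drives mitochondrial and fatty acid oxidation genes in endurance training, was at 1.96, 1.83, 2.17 and 1.74 FPKM in C, 2.33, 2.81, 2.55 and 2.53 in E, 2.39, 2.57, 2.35 and 2.58 in T, and 2.76, 2.74, 2.97 and 2.097 in TE. All E and all T mice were above all C mice. The log2 fold change was 0.23 (SE 0.074, adjusted p = 0.332) for training and 0.24 (SE 0.074, adjusted p = 0.128) for the tumor, and it passed for the tumor without replicate 4 of TE. Plin5, which ties lipid droplets to mitochondria, had a log2 fold change of -0.31 (SE 0.20, adjusted p = 0.587) for training. G0s2, the inhibitor of the triglyceride lipase Pnpla2, had one of 0.10 (SE 0.13, adjusted p = 0.823). It was 0.021 without replicate 2 of T and 0.17 without replicate 3 of T.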

How the data were processed

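Gastrocnemius RNA of 16 mice, 4 per group, was analysed with groups and replicate numbers from the labels. Per the submitters' processing notes, the authors trimmed reads with fastp 0.20.1, aligned them to GRCm39 with HISAT2 2.1.0 and deposited counts per gene from HTSeq 0.11.2. The annotation release and strand setting are not given in the sources used here, nor is one kit version: the paper and the labels differ. The deposited FPKM equal these counts divided by length and library total (checked on 11001 genes). The tables held 0 columns of other samples.

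edgeR 4.0.16 (R 4.3.3) was fitted to the counts of all 16 libraries with TMM factors, filterByExpr and 1 coefficient per group. Quasi-likelihood p-values are two-sided and adjusted by the Benjamini-Hochberg method over the 14749 genes tested, called under 0.05. Correlations used log2 CPM (prior count 2) and 100000 resamples. Positions, promoters and motifs come from GENCODE on GRCm39. The fit was tested on simulated counts. Intervals are for the fold change between groups, with an SE that takes in the spread between mice, and do not give the range of single mice. PCR copies cannot be told from molecules. Mice of a group differed beyond counting noise.

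The 38 members, the gene lists and the tests were chosen with earlier results of these data known. Values per mouse are printed for the 3 members with the smallest p in each contrast and 12 chosen genes, though not in all 4 groups for each gene. Of the other pathway genes, those called and Ppargc1a, Plin5 and G0s2 are named, and 1 chosen gene is not reported here. The alternatives were DESeq2 1.42.0, its size factors, no filter, the replicate block, each mouse left out, log2(FPKM + 1) and group-centred values. Figures were drawn with matplotlib 3.10.9.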

Additional observations from a re-analysis of the deposited data

Results flagged for a closer look

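Of 152 sets of 4 FPKM values (38 genes in 4 groups), 8 had a mouse set apart from the other 3 by a gap larger than Dixon's 95% critical value, as a share of the range, allows, where chance flags about 1 in 20. In the C group, Cd36 was low in replicate 1 at 93.1 FPKM (others 116.8 to 117.3), as was Hadhb in replicate 1 at 54.9 (59.1 to 59.8), and Cpt1b was low in replicate 2 at 0.160 (0.352 to 0.362). In the T group, replicate 3 was high for Acacb at 40.7 FPKM (32.5 to 33.4) and for Pnpla2 at 122.6 (96.0 to 99.0). In the TE group, Acadvl was high in replicate 1 at 186 FPKM (170.8 to 173.2), Lipe was high in replicate 2 at 12.98 (10.7 to 11.1), and Acads, the short-chain dehydrogenase, was low in replicate 3 at 36.0 (38.5 to 39.0). The E group had none.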

How the results depend on the processing

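The count of 0 members called in E vs C became 5 with DESeq2, 1 with DESeq2's size factors in edgeR and 1 without the filter on low counts. For the tumor average it became 2 with DESeq2, and 11 members instead of 7 then had an unadjusted p under 0.05. For the training average it became 4 with DESeq2. Leaving out each mouse in turn, members called ranged from 0 to 2 in E vs C (most without replicate 3 of T), 0 to 2 for the tumor average (without replicate 2 of E) and 0 to 1 for the training average (without replicate 3 of T), and were 0 in the other 4 contrasts. Members at an unadjusted p under 0.05 then ranged from 5 to 9 in T vs C (fewest without replicate 3 of C), 10 to 16 in E vs C, 5 to 12 for the tumor average (most without replicate 2 of E or of T) and 12 to 20 for the training average. The causes of these changes were not tested. The correlation of Lipe and Adipoq was 0.562 on log2(FPKM + 1), with a permutation p of 0.0243, and ranged from 0.376 to 0.699 with 1 mouse left out, highest without replicate 1 of T. The direction of Pdk4 turned in T vs C (-0.56 to 0.41), for the tumor average (-0.16 to 0.33) and for the training average (-0.35 to 0.13) when 1 mouse was left out, and that of Ucp3 for the training average (-0.11 to 0.13). With the replicate number as a block, the training average of Pdk4 was 0.040, and 0 members were called in each of the 7 contrasts, so that the block changed no call of a member, while Nudt7 in T vs C no longer passed (-0.44). The numbers do not pair mice: the 24 same-number pairs had correlations of -0.24 to 0.21, with a median of -0.013 against 0.0086 for other pairs, and 5 of 16 mice correlated best with their own number. Among the single-gene values under the alternatives other than leaving out mice, 216 kept their direction and their side of the threshold, 18 newly passed, 1 no longer passed and 1, the training average of Pdk4, changed direction. With mice left out, 910 kept both, 14 newly passed, 9 no longer passed and 11 changed direction, all of them of Pdk4 or Ucp3. At 17 to 48 counts per library, Cpt1b has few reads to measure it by.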
